A study of Homo sapiens with 36 samples.

Results

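The 9 genes ATM, ATR, PRKDC, CHEK1, CHEK2, WEE1, TP53BP1, MDC1 and MDM4 encode kinases and adaptors of the DNA damage response and, in MDM4, a relative of the ubiquitin ligase MDM2. They were taken as a set by name, not by a rule on their values, but with earlier results of these data known. They are 9 of 62757 genes listed. Their mRNA was followed by RNA-seq of polyA RNA in HCT-116, a human colorectal carcinoma cell line, in 24 libraries that form 8 groups of 3 replicates. In all 4 backgrounds MDC1 was lower after oxaliplatin (OXPT), by a log2 fold change of -0.72 to -1.14. CHEK1 and WEE1 had log2 fold changes of -0.78 to -1.29 and passed the test, which did not pair replicates, in 2 of the 4 backgrounds each. With the replicate number as a block, CHEK1 passed in all 4 and WEE1 in 3. With only the groups compared, 0 of the 9 passed in wild-type (WT) cells or in FBXW7 knockout cells with control esiRNA (KO esiCT). Leaving out single libraries lost some calls of MDC1, CHEK1 and WEE1. ATM, ATR, PRKDC and TP53BP1 differed widely among replicates, and none of their changes passed the test. In some alternative fits PRKDC passed after OXPT. In comparisons other than those of OXPT with untreated cells, ATM, ATR, PRKDC and TP53BP1 passed only in some alternative fits.

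KO cells lack FBXW7, which picks the proteins that a ubiquitin ligase of the SCF type marks for degradation (genotype FBXW7-/-). They carried control esiRNA (KO esiCT), esiRNA against HDAC4 (KO esiHDAC4) or the HDAC4 degrader #11, a PROTAC compound (KO #11). An esiRNA is a pool of short silencing RNAs made by enzymatic digestion. Transfection lasted 48 h, and each KO background was either untreated or received OXPT at 50 µM for the last 24 h. For #11 the treatment entry of the labels gives 1 µM and the description entry 10 µM, so its dose is not settled. The WT libraries, with intact FBXW7, also came untreated and with OXPT, but their titles name the control and their treatment entries esiHDAC4, so their esiRNA is not settled. How many KO clones were used is not given in the sources used here. Whether replicates came from separate cultures is not in the labels, and the study's methods speak of independent experiments for its figures in general, without naming the RNA-seq. The p-values measure the spread between these libraries.

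ATM, ATR and the catalytic subunit of DNA-PK, encoded by PRKDC, are giant related kinases that sense broken DNA or stalled replication forks. ATM mainly activates the checkpoint kinase encoded by CHEK2, and ATR the one encoded by CHEK1; WEE1 holds the mitotic kinase CDK1 in check by phosphorylation. MDC1 and the product of TP53BP1 are adaptors that gather at breaks on marked chromatin, while MDM4 is a relative and binding partner of the ubiquitin ligase MDM2. OXPT, a platinum drug used against colorectal cancer, damages DNA by forming adducts. The activity of these kinases is largely set after translation and was not measured here.

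Levels are TMM-normalized CPM (counts scaled to the same total in every library), and a gene was called at an adjusted p under 0.05 over the 12356 genes tested with a fold change over 1.5. For some members the text says that groups did not overlap, and how many of all genes had such groups was not counted. The libraries held between 10725966 and 20527222 reads on genes (median 14510758). The silenced gene, HDAC4, was lower in KO esiHDAC4 than in KO esiCT cells by -0.82 (log2, SE 0.24, adjusted p = 0.561) untreated and by -0.74 (SE 0.25, adjusted p = 1) under OXPT, and neither difference was called. With #11, which acts on the protein, HDAC4 mRNA under OXPT was higher by 1.36 (SE 0.25, adjusted p = 0.0383). Untreated WT cells had 22.0 ± 3.44 CPM of HDAC4 (SD, n = 3), beside 19.1 ± 5.45 in KO esiCT and 10.9 ± 3.48 in KO esiHDAC4. Under OXPT the values were 8.98 ± 0.90, 6.50 ± 0.91 and 3.88 ± 0.48 CPM. Genotype differs as well between WT and KO cells, and which esiRNA the WT cells carried was not tested. FBXW7 reads were counted over the whole gene and do not check the knockout. Of the 7 colon epithelium markers, 6 were detected in every library, whereas VIL1 had 0 to 7 counts. Of 4 markers of blood, stromal and endothelial cells, PTPRC, COL1A2 and PECAM1 had at most 15 counts per library, and COL1A1 had 303 to 1097. The share of unmapped reads was highest, at 22.3%, in replicate 3 of KO esiCT with OXPT.

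Each library was also given an mRNA length index, the median log2 CPM of 987 protein-coding genes with mRNAs of 8 kb or more, minus that of 2576 genes with mRNAs of up to 2 kb, after centring each gene. A low index means that long mRNAs were under-represented. It ran from -1.44 in WT OXPT replicate 3 to 1.13 in WT untreated replicate 2, and the library numbered 3 had the lowest index in 6 of 8 groups. Replicates of a group lay up to 1.99 apart, in WT untreated cells. For the long members this index is given beside the results, and its part in them was not tested except by the fit with the index as a covariate, which was chosen after seeing the data.

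Per kb of the canonical mRNA, the level in untreated KO esiCT cells was highest for CHEK2, at 19.7 ± 4.45 CPM per kb (SD, n = 3). PRKDC followed at 13.3 ± 6.20, WEE1 at 10.1 ± 0.88, MDC1 at 8.89 ± 1.51 and CHEK1 at 7.52 ± 2.40 CPM per kb. MDM4 stood at 5.24 ± 1.35, TP53BP1 at 3.16 ± 1.37, ATR at 1.65 ± 0.87 and ATM, the lowest, at 1.11 ± 0.54 CPM per kb. No 2 neighbours in this order differed by more than the sum of their SDs. The order was the same in untreated WT cells, from 20.2 ± 6.15 for CHEK2 to 1.05 ± 0.70 CPM per kb for ATM.

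Among the apical kinases, ATM did not differ between untreated and OXPT cells beyond the spread. ATM (chr11:108223044-108369102 in GRCh38, plus strand) has a canonical mRNA of 12.9 kb in 63 exons. In KO esiCT cells it measured 18.9, 17.9 and 6.33 CPM untreated and 16.6, 19.9 and 6.07 CPM with OXPT. In both groups replicate 3 was well below the other two, and the groups overlapped. With esiHDAC4 the values were 22.7, 23.7 and 17.3 CPM untreated and 31.0, 21.3 and 4.93 CPM with OXPT. In KO #11 cells they were 9.99, 6.60 and 17.8 CPM untreated and 10.8, 9.87 and 8.41 CPM with OXPT. Here the highest library was the untreated replicate 3, and again the groups overlapped. WT cells gave 11.1, 23.6 and 6.02 CPM untreated and 14.2, 12.5 and 3.14 CPM with OXPT. The log2 fold changes ranged from -0.01 (SE 0.62, adjusted p = 0.996) in KO esiCT to -0.45 (SE 0.63, adjusted p = 0.71) in WT cells. With SEs of this size, the interval of 2 SEs around ATM's change reached from -1.71 to 0.80 in WT cells and from -1.25 to 1.24 in KO esiCT cells. ATR (chr3:142449007-142578733, minus strand, 47 exons), the kinase of stalled forks, had a similar profile over libraries. It measured 17.1, 17.9 and 5.28 CPM in untreated KO esiCT cells and 14.6, 18.5 and 3.69 CPM with OXPT. In WT cells it measured 7.30, 22.3 and 4.64 CPM untreated and 12.3, 8.11 and 1.61 CPM with OXPT. The lowest library was replicate 3 in each of these 4 groups. In KO esiHDAC4 cells it ranged from 14.4 to 22.5 CPM untreated and from 3.53 to 23.7 CPM with OXPT, and in KO #11 cells from 4.67 to 15.4 and from 6.17 to 8.08 CPM. Its log2 fold changes, from -0.12 (SE 0.72) in KO esiCT to -0.64 (SE 0.73, adjusted p = 0.644) in WT cells, were not called.

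PRKDC (chr8:47773111-47960178, minus strand) is the longest member, with a 13.5 kb mRNA in 86 exons, and its highest library held 20.3 times its lowest. It measured 201, 249 and 86.3 CPM in untreated KO esiCT cells and 149, 192 and 24.6 CPM with OXPT. In KO esiHDAC4 cells it measured 237, 341 and 158 CPM untreated and 183, 178 and 21.8 CPM with OXPT. In both backgrounds the OXPT replicate 3 stood far below the rest, and the groups overlapped. In WT cells the untreated libraries alone spanned 138, 405 and 32.9 CPM, and those with OXPT 121, 136 and 19.96 CPM. KO #11 was the one background in which the groups did not overlap, with 105, 68.5 and 146 CPM untreated against 48.2, 49.0 and 53.9 CPM with OXPT. The log2 fold change there was -1.08 (SE 0.83, adjusted p = 0.47) and in WT cells -1.06 (SE 0.82, adjusted p = 0.465), neither called. Without the count filter PRKDC was called lower in KO esiHDAC4 (-0.98, adjusted p = 0.00888), KO #11 (-1.06, adjusted p = 0.00463) and WT cells (-1.14, adjusted p = 0.00134). It was also called in KO #11 with only the groups compared (-1.08, adjusted p = 0.0103) and in WT cells with number 3 left out of every group (-1.05, adjusted p = 0.0439). The length index of the #11 libraries also did not overlap, at -0.08 to 0.52 untreated and -0.40 to -0.29 with OXPT.

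TP53BP1, the adaptor that favours end joining at breaks, lies at chr15:43403061-43510728 on the minus strand and has a 10.4 kb mRNA. In KO esiCT cells it measured 36.9, 44.4 and 17.0 CPM untreated and 37.2, 42.3 and 1.79 CPM with OXPT. The last of these, replicate 3, rested on 15 reads and was lower than any other library. In KO esiHDAC4 cells TP53BP1 measured 43.9, 48.8 and 26.6 CPM untreated and 47.5, 38.0 and 8.63 CPM with OXPT, and in WT cells 31.8, 51.3 and 9.09 against 35.7, 28.3 and 3.80 CPM. In each of these groups replicate 3 was the lowest. KO #11 cells gave 24.5, 13.1 and 23.4 CPM untreated and 16.0, 17.0 and 12.3 CPM with OXPT. Log2 fold changes of -0.26 to -0.44, with SEs of 0.80 to 0.81, were not called. Of the exon bases of TP53BP1, 28.8% overlap TUBGCP4 on the opposite strand, where reads could not be assigned.

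In 7 of 8 groups the library with the lowest length index also had the lowest level of ATM, of ATR, of PRKDC and of TP53BP1, and in 8 of 8 that of MDM4. For CHEK1, WEE1 and CHEK2, whose mRNAs are shorter, this held in 6 of 8 groups each, and for MDC1 in 3 of 8. The median over groups of the highest library over the lowest was 3.14-fold for ATM, 4.09-fold for ATR, 4.84-fold for PRKDC and 4.06-fold for TP53BP1. It was 1.36-fold for MDC1, 1.25-fold for CHEK2, 1.57-fold for WEE1, 1.77-fold for MDM4 and 1.78-fold for CHEK1. Other protein-coding genes with mRNAs of 8 kb or more had a median of 1.76-fold. After OXPT, the median log2 fold change of these long genes was -0.17 in KO esiCT, -0.26 in KO esiHDAC4, -0.38 in KO #11 and -0.40 in WT cells. For genes with mRNAs of up to 2 kb it was 0.26, 0.25, 0.22 and 0.11. Grouped by gene span instead, it was -0.30, -0.37, -0.40 and -0.49 for genes of 100 kb or more. Genes under 100 kb had 0.06, 0.08, 0.08 and 0.02. ATM, ATR, PRKDC and TP53BP1 span 108 to 187 kb, and MDM4 spans 41.7 kb. Gene span and mRNA length were not separated. With the index as a covariate, the OXPT changes of ATM, ATR and TP53BP1 turned positive in all 4 backgrounds, from 0.07 for TP53BP1 in KO esiCT to 0.66 for TP53BP1 in KO #11, and none was called. PRKDC then lay between -0.07 and 0.27. The sign of the OXPT change of ATM, ATR and TP53BP1, and of PRKDC outside KO esiHDAC4, therefore depended on whether the index was in the fit.

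The member called in all 4 backgrounds was MDC1, the adaptor that binds phosphorylated H2AX and holds other factors at breaks. It lies at chr6:30699807-30717447 on the minus strand, with a 6.97 kb mRNA in 15 exons. In KO esiCT cells it measured 50.5, 71.1 and 64.2 CPM untreated and 40.5, 41.8 and 30.2 CPM with OXPT. KO esiHDAC4 cells gave 60.5, 70.4 and 61.6 CPM untreated and 38.9, 38.0 and 29.2 CPM with OXPT. In KO #11 cells the values were 63.9, 54.9 and 43.2 against 33.3, 32.8 and 30.5 CPM, and in WT cells 63.1, 77.2 and 54.9 against 26.6, 30.6 and 31.4 CPM. Every OXPT library was below every untreated library of its background. In bulk RNA, fewer cells in a given state and less of an mRNA per cell cannot be told apart. The log2 fold change was -0.72 (SE 0.19, adjusted p = 0.0177) in KO esiCT, -0.86 (SE 0.19, adjusted p = 0.00523) in KO esiHDAC4, -0.75 (SE 0.19, adjusted p = 0.0171) in KO #11 and -1.14 (SE 0.19, adjusted p = 0.000575) in WT cells. With the length index as a covariate, MDC1 stayed called in all 4, at -0.66 to -1.03. It was not called without the count filter in KO esiCT (-0.78, adjusted p = 0.122) or KO #11 (-0.75, adjusted p = 0.171), nor with only the groups compared in KO esiCT (-0.75, adjusted p = 0.111) or WT cells (-1.21, adjusted p = 0.0866). With number 3 left out of every group, an alternative chosen after seeing the data, its change in KO esiCT (-0.56, adjusted p = 0.0416) was under the fold needed for a call. The fall in WT cells and that in KO esiCT cells differed by 0.42 (SE 0.27, adjusted p = 1), which was not called. The call in KO esiCT was lost without untreated replicate 2 (-0.63, adjusted p = 0.0805), untreated replicate 3 (-0.69, adjusted p = 0.0536) or OXPT replicate 3 (-0.59, adjusted p = 0.0915). That in KO #11 was lost without untreated replicate 1 (-0.63, adjusted p = 0.0992), untreated replicate 2 (-0.75, adjusted p = 0.0555) or OXPT replicate 2 (-0.76, adjusted p = 0.0593).

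CHEK1, the effector kinase of ATR, lies at chr11:125625163-125676255 on the plus strand and has a 4.13 kb mRNA. In KO esiCT cells it measured 36.1, 37.5 and 19.7 CPM untreated and 19.7, 17.9 and 11.9 CPM with OXPT, so that the groups just touched. KO esiHDAC4 cells gave 33.2, 44.9 and 27.3 CPM untreated and 20.8, 15.9 and 9.94 CPM with OXPT. In KO #11 cells the values were 28.9, 21.4 and 21.4 against 9.73, 11.2 and 13.0 CPM, and in WT cells 29.7, 48.6 and 25.4 against 17.2, 19.0 and 8.12 CPM. In the latter 3 backgrounds every OXPT library was below every untreated one. The log2 fold change was called in KO esiHDAC4 (-1.18, SE 0.35, adjusted p = 0.0306) and in WT cells (-1.23, SE 0.35, adjusted p = 0.0271). It was not called in KO #11 (-1.08, SE 0.35, adjusted p = 0.0566) or in KO esiCT (-0.91, SE 0.35, adjusted p = 0.0961). With the replicate number as a block, which pairs these libraries, CHEK1 was also called in KO #11 (-1.04, adjusted p = 0.0133) and in KO esiCT (-0.89, adjusted p = 0.026). The call in WT cells was lost without untreated replicate 2 (-0.91, adjusted p = 0.138) or OXPT replicate 3 (-0.93, adjusted p = 0.125). That in KO esiHDAC4 was lost without untreated replicate 1 (-1.26, adjusted p = 0.0609) or 2 (-0.97, adjusted p = 0.133), or without OXPT replicate 2 (-1.20, adjusted p = 0.0829) or 3 (-0.95, adjusted p = 0.151). In KO #11 CHEK1 was called in 7 of the 24 fits that left out 1 library, at -1.08 to -1.11, and in all 7 that library came from another background.

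WEE1, the kinase that restrains CDK1, lies at chr11:9573670-9593457 on the plus strand and has a 3.59 kb mRNA. In KO esiCT cells it measured 37.7, 38.3 and 32.6 CPM untreated and 21.1, 18.1 and 11.8 CPM with OXPT. Those with esiHDAC4 had 43.9, 53.6 and 39.6 CPM untreated and 27.8, 19.3 and 8.71 CPM with OXPT. In KO #11 cells it measured 34.3, 38.2 and 32.6 CPM untreated and 16.5, 18.2 and 26.5 CPM with OXPT. The groups did not overlap in these 3 backgrounds. In WT cells the values of 44.4, 60.1 and 21.1 CPM untreated and 19.9, 21.4 and 13.8 CPM with OXPT overlapped through untreated replicate 3. WEE1 was called lower in KO esiHDAC4 (-1.29, SE 0.36, adjusted p = 0.0225) and WT cells (-1.19, SE 0.36, adjusted p = 0.0377). It was not called in KO esiCT (-1.08, SE 0.36, adjusted p = 0.0558) or KO #11 (-0.78, SE 0.36, adjusted p = 0.19), although with the replicate block it was called in KO esiCT (-1.12, adjusted p = 0.0194). The call in KO esiHDAC4 was lost without untreated replicate 2 (-1.18, adjusted p = 0.0786), OXPT replicate 2 (-1.34, adjusted p = 0.0626) or OXPT replicate 3 (-0.97, adjusted p = 0.11). That in WT cells was lost without any 1 of the 6 WT libraries except untreated replicate 3 (-0.85 to -1.31) and without KO #11 untreated replicate 1 (-1.19, adjusted p = 0.0516). In KO esiCT WEE1 was called in 6 of the 24 fits that left out 1 library, at -1.09 to -1.29.

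**Figure D1:**
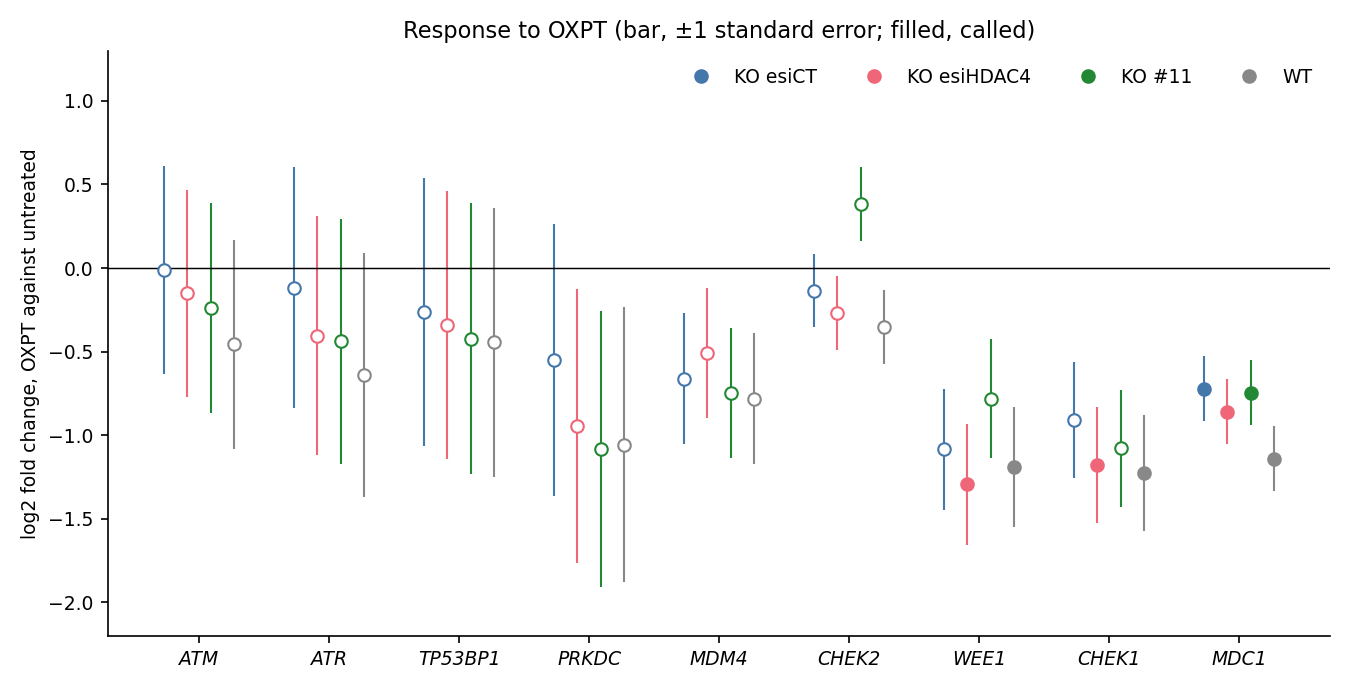
Log2 fold change of each gene after OXPT (vertical axis) in KO esiCT, KO esiHDAC4, KO #11 and WT cells, with bars of 1 standard error and filled points for called changes. MDC1 is filled in all 4 backgrounds, CHEK1 and WEE1 in KO esiHDAC4 and WT cells, and the other 6 genes in none.

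CHEK2, the effector kinase of ATM, was the member with values of both signs after OXPT, above 0 in KO #11 only. It lies at chr22:28687743-28742422 on the minus strand and has the shortest mRNA of the 9, 1.84 kb. In KO #11 cells it measured 25.2, 24.3 and 19.6 CPM untreated and 32.9, 29.9 and 27.4 CPM with OXPT, all higher. With esiHDAC4 it measured 31.4, 37.4 and 30.7 CPM untreated and 28.3, 29.1 and 25.3 CPM with OXPT, all lower. KO esiCT cells gave 39.5, 42.5 and 27.0 against 33.6, 33.7 and 31.9 CPM, and WT cells 46.4, 40.9 and 24.6 against 32.3, 32.3 and 23.1 CPM, and these groups overlapped. None of the changes was called. They were 0.38 (SE 0.22, adjusted p = 0.312) in KO #11, -0.27 (SE 0.22, adjusted p = 0.483) in KO esiHDAC4, -0.14 (SE 0.22) in KO esiCT and -0.35 (SE 0.22, adjusted p = 0.351) in WT cells. The response in KO #11 differed from that in KO esiCT by 0.52 (SE 0.31, adjusted p = 0.836), which was not called. The untreated #11 libraries were also below all 3 untreated KO esiCT libraries, by -0.66 (SE 0.22, adjusted p = 0.164), again not called.

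MDM4, the partner of MDM2, lies at chr1:204516379-204558120 on the plus strand and has a 10.1 kb mRNA. It measured 60.5, 60.6 and 37.0 CPM in untreated KO esiCT cells and 36.7, 41.9 and 21.1 CPM with OXPT, the untreated replicate 3 lying within the OXPT range. In KO esiHDAC4 cells it measured 53.9, 49.6 and 47.6 CPM untreated and 45.5, 41.6 and 19.1 CPM with OXPT, and in KO #11 cells 57.0, 53.5 and 67.5 against 35.7, 32.5 and 37.9 CPM. These groups did not overlap. WT cells gave 44.1, 65.5 and 34.4 CPM untreated and 37.6, 36.4 and 9.80 CPM with OXPT, which overlapped. The log2 fold changes of -0.66 (SE 0.39, adjusted p = 0.299), -0.51 (SE 0.39, adjusted p = 0.448), -0.75 (SE 0.39, adjusted p = 0.262) and -0.78 (SE 0.39, adjusted p = 0.225) in KO esiCT, KO esiHDAC4, KO #11 and WT cells were not called. Leaving number 3 out of every group, an alternative chosen after seeing the data, MDM4 was called in KO esiCT (-0.62, adjusted p = 0.0219) and KO #11 (-0.75, adjusted p = 0.00688).

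Counted together, 1 of the 9 genes was called lower in KO esiCT, 3 in KO esiHDAC4, 1 in KO #11 and 3 in WT cells, and none was called higher. Of all genes tested, 5.08%, 5.54%, 3.57% and 5.60% were called lower in the same comparisons, 6.23%, 6.44%, 5.94% and 5.10% higher, and 11.3%, 12.0%, 9.51% and 10.7% in either direction. The median log2 fold change of the 9 was -0.55, -0.51, -0.75 and -0.78, beside 0.01, 0.02, -0.00 and -0.06 over all genes. The 3 KO responses and the WT response share no libraries with each other, but were tested in 1 model of 24 libraries. Under OXPT, deviations of same-numbered libraries from their group means correlated between KO esiCT and WT (0.53 to 0.65) and between KO esiCT and KO esiHDAC4 (0.72 to 0.77). Between KO esiCT and KO #11 they did not (-0.23 to 0.13). The 4 responses are therefore not all independent repeats.

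The question whether silencing HDAC4, adding #11 or losing FBXW7 changes these genes was addressed by 9 further comparisons. In these, 0 of the 9 genes were called by edgeR or by DESeq2. At an unadjusted p under 0.05, edgeR left 1 gene, CHEK2 with #11 in untreated cells, and 0 in the other 8 comparisons. For HDAC4 silencing, in which 0.00809% of all genes were called untreated and 0 under OXPT, the members ranged from -0.13 for CHEK2 to 0.56 for ATM (SE 0.62) untreated, and from -0.26 for CHEK2 to 0.42 for ATM under OXPT. The comparisons with #11 shared their esiCT controls with the silencing comparisons. Of all genes, 0.510% were called untreated and 0.121% under OXPT. Of the members, 8 of 9 were lower untreated and 7 of 9 under OXPT, without a call. Their median was -0.38 and -0.55, beside -0.0034 and -0.014 over all genes. How many of all genes were lower was not counted. ATM, ATR, PRKDC and TP53BP1 varied together over libraries (r = 0.87 to 0.99), so the members are not independent counts. PRKDC had the lowest values, -0.75 (SE 0.82) untreated and -1.28 (SE 0.83, adjusted p = 0.635) under OXPT. KO against WT, with 0.291% of all genes called untreated and 0.138% under OXPT, gave values of -0.21 to 0.22 untreated and -0.11 to 0.74 under OXPT, the highest that of ATR (SE 0.73). The OXPT response of KO esiCT cells was smaller than that of WT cells for all 9 members in value, by 0.11 to 0.52, with a lowest adjusted p of 1. The median of this difference was 0.32 for the members and 0.09 over all genes. Responses with esiHDAC4 differed from those with esiCT by -0.39 to 0.15 and those with #11 by -0.53 to 0.52, and 0 genes of the whole table were called in these 3 tests of a difference between responses. Intervals of 2 SEs around these differences in MDC1, the most precisely measured member, ran from -0.12 to 0.96 for KO esiCT against WT, from -0.68 to 0.40 for esiHDAC4 and from -0.56 to 0.52 for #11.

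The other genes of the same pathways were taken from 7 lists with 51 genes, of which 49 passed the filter; RAD50, with 8 to 58 counts, and SHLD3, with 6 to 45, did not. After OXPT, 8, 9, 7 and 9 of the 49 were called in KO esiCT, KO esiHDAC4, KO #11 and WT cells, with 2, 2, 3 and 2 of them higher, beside 11.3%, 12.0%, 9.51% and 10.7% of all genes. Their median log2 fold change was -0.36, -0.27, -0.24 and -0.39. In the other 9 comparisons 0 of the 49 were called by edgeR.

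Among 7 genes in the list of MDM2 and related regulators, MDM2 and PPM1D were called higher in every background. Of all genes tested, 6.23%, 6.44%, 5.94% and 5.10% were called higher in KO esiCT, KO esiHDAC4, KO #11 and WT cells. MDM2, which binds MDM4, went from 59.6 ± 13.6 to 355 ± 156 CPM (SD, n = 3) in KO esiCT and from 72.2 ± 17.5 to 258 ± 176 CPM in WT cells. Its log2 fold change was 2.58, 2.25, 2.42 and 1.84 in KO esiCT, KO esiHDAC4, KO #11 and WT cells, with adjusted p of 0.00192, 0.00495, 0.00377 and 0.0192. PPM1D, a phosphatase that reverses ATM signalling, rose by 2.04, 1.89, 1.87 and 2.03 on the log2 scale in the same order (SE 0.26 each). HIPK2, a nuclear kinase, fell in KO esiHDAC4 (log2 fold change -1.03), KO #11 (-1.12) and WT cells (-1.40), and was at -0.35 (SE 0.22) in KO esiCT. The values of MDM2 and MDM4 thus had opposite signs, those of MDM4 without a call.

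Of 7 genes of the CDK1 switch, on which WEE1 acts, 4, 4, 3 and 4 were called lower in KO esiCT, KO esiHDAC4, KO #11 and WT cells. None was called higher. Of all genes tested, 5.08%, 5.54%, 3.57% and 5.60% were called lower in the same order. PLK1, a mitotic kinase that marks WEE1 for destruction, fell in all, with log2 fold changes of -2.21, -2.12, -1.23 and -1.81 in that order. CCNB1, the cyclin partner of CDK1, fell with changes of -1.996, -1.82, -0.93 and -1.64. CDC25B, a phosphatase that removes the marks set by WEE1, fell with changes of -1.16, -1.11, -1.15 and -1.40 (SE 0.16 each). CDC25C, of the same family, fell in KO esiCT (-1.22), KO esiHDAC4 (-1.41) and WT cells (-1.40), and was at -0.00 (SE 0.22) in KO #11. CDK1 was not called, at -0.68 to 0.09.

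Around ATR and CHEK1, 1 of 13 genes was called in each background, a share below that of all genes called (9.51% to 12.0%), so the count is no result about this list. RAD9A, of the clamp that activates ATR, was called lower in KO esiCT (-0.80, SE 0.26, adjusted p = 0.0475). RPA3, of the complex that coats single-stranded DNA, was called lower in KO esiHDAC4 (-1.11, SE 0.27, adjusted p = 0.0107) and WT cells (-0.98, SE 0.27, adjusted p = 0.0247). ATRIP, the partner of ATR, was called higher in KO #11 (0.69, SE 0.20, adjusted p = 0.0325). Of 9 tested genes of chromatin signalling at breaks, only H2AX was called, which is near the share of all genes. H2AX, the histone to which MDC1 binds once it is phosphorylated, fell in KO esiCT (-1.46), KO esiHDAC4 (-1.63) and WT cells (-1.74) and was at -0.54 (SE 0.24, adjusted p = 0.171) in KO #11. No gene was called among the 3 tested that activate ATM, the 2 Ku subunits that recruit DNA-PK, or the 8 that fold or belong to the family of giant kinases.

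**Figure D2:**
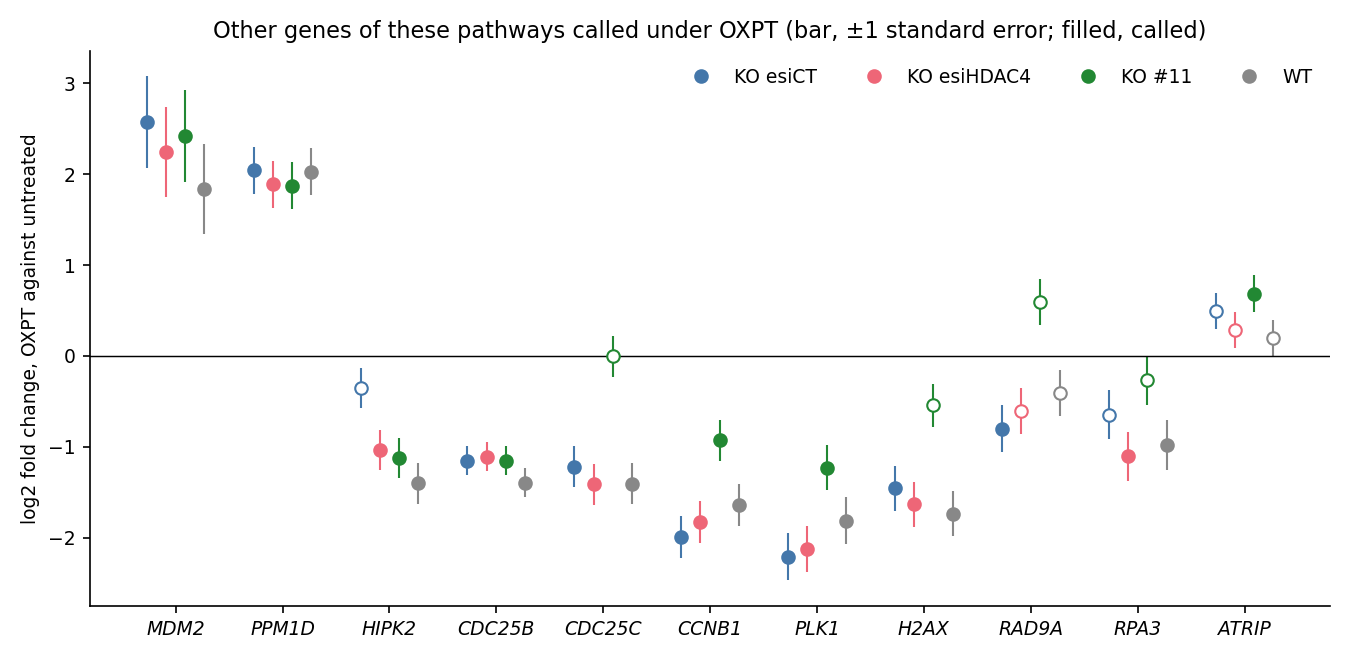
Log2 fold change after OXPT (vertical axis) of the 11 further pathway genes called in at least 1 background, in KO esiCT, KO esiHDAC4, KO #11 and WT cells, with bars of 1 standard error and filled points for called changes. MDM2 and PPM1D lie near 2 in all backgrounds, and CCNB1, PLK1 and CDC25B lie below 0 in all.

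As examples of a member called in every background (MDC1) and of members called in none (ATM and CHEK2), the 250 bases before their transcription starts are shown, from RefSeq promoters in GRCh38.p14. Capitals mark matches, on either strand, to CCAAT, bound by NF-Y, or to TTTGAA and TTCGAA, the cell-cycle homology region. The windows are chr6:30717282-30717531 (minus strand), chr11:108222817-108223066 (plus strand) and chr22:28741821-28742070 (minus strand).
MDC1: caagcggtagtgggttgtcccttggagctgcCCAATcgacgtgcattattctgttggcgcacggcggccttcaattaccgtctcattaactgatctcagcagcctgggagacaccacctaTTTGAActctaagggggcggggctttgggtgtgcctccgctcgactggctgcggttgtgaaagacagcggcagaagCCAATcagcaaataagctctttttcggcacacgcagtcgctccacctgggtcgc
ATM: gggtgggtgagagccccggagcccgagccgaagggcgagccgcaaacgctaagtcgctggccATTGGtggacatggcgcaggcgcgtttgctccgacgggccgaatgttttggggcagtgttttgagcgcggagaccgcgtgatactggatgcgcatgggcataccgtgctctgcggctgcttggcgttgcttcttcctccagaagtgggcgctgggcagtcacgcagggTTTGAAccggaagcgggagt
CHEK2: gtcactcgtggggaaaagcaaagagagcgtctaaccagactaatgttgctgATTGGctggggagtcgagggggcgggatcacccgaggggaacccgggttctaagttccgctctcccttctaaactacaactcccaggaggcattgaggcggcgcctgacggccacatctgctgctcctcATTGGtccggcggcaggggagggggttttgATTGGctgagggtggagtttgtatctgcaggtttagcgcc
The MDC1 window held 2 matches to CCAAT, starting 219 and 54 bases before the start, and 1 to TTTGAA, 130 bases before it. The ATM window held 1 of each, and that of CHEK2 held 3 CCAAT matches and no TTTGAA or TTCGAA. Of the 7 members with an entry, 5 held CCAAT and 3 (ATM, MDC1 and MDM4) held TTTGAA or TTCGAA. Over all 35116 promoter windows of this length, 32.0% held CCAAT and 14.3% held TTTGAA or TTCGAA. The E2F words TTTCCCGC, TTTCGCGC, TTTGCCGC and TTTGGCGC, found in 2.79% of windows, matched none of the 7 windows. For CHEK1 and TP53BP1 the starts used lie 1061 and 17484 bases from the canonical ones. The bases before their canonical starts were thus not searched for any of these words. Such matches describe the sequence and do not mark bound sites.

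The tested genes whose log2 CPM over the 24 libraries was most like that of each member are given as a description, since libraries share treatment and length composition. ATM and ATR were each the gene most like the other (Pearson r = 0.99), and ZNF638 followed for both (r = 0.98). PRKDC was most like QSER1 (r = 0.99), ATAD2 and ARHGAP21, and TP53BP1 most like USP47 (r = 0.98), TRIP12 and KIF13A. For CHEK1 the genes were DEPDC1B (r = 0.95), CEP55 and TTC26, and for WEE1 GSTCD (r = 0.95), KIF18A and BARD1. For MDC1 they were NSD2 (r = 0.96), HJURP and GTSE1, and for MDM4 UGGT1 (r = 0.96), SLC38A1 and NHLRC2. CHEK2 had the least close neighbours, HMGB3 (r = 0.83), PRPF4 and HSPA8P1, the latter a processed pseudogene whose reads may come from its parent gene.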

How the data were processed

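The authors deposited raw counts per gene for 36 libraries of polyA RNA, without normalization, in the layout of STAR gene counts. The submitters' processing notes name STAR 2.7.11a, Trimmomatic 0.39 and hg38; the annotation is not given in the sources used here, whereas the methods of the paper name salmon. The unstranded counts were used, since reverse-strand and forward-strand totals were equal within 1.00 to 1.02 although the library kit is a stranded one. Reads on no gene, on several or unmapped took 26.0% to 41.2% and were left out. Reads on genes that overlap on opposite strands were thereby lost. Identifiers were matched to GENCODE 44 (62639 of 62757).

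Genes needed a mean count of 64 in at least 1 group. They were tested in 1 model of 24 libraries by edgeR 4.0.16 (R 4.3.3), with TMM normalization, the quasi-likelihood F test and Benjamini-Hochberg adjustment, in 13 comparisons. Each SE was approximated by dividing the log2 fold change by the root of its F value. For log2 CPM the prior count was 2. The test was tried on simulated data. Replicates (24 pairs, 0 identical) differed beyond sampling noise, at 8.31 to 224 chi-square per degree of freedom. Samples were grouped by the labels; 12 WT libraries with opposite OXPT entries enter no comparison. Replicate numbers paired the libraries in 10 comparisons, with all same-number correlations of deviations over 0.1, but not in the 3 that set #11 against esiCT. Alternatives were DESeq2 1.42.0, RLE, other filters, reverse-strand counts, fewer groups, the replicate block and leaving out each library. Named genes are the 9 members, list genes called under OXPT and the 3 genes most like each member. Members and lists were chosen with earlier results of these data known. A gene of these pathways is not reported here. Depth limits the precision where counts are low, with 15 reads for the lowest member count. The spread between libraries limits it too: PRKDC, with 207 to 7667 reads, had SEs of 0.82 to 0.83 after OXPT.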

Additional observations from a re-analysis of the deposited data

Results flagged for a closer look

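The OXPT response of CHEK2 stood out because all 3 OXPT libraries of KO #11 were above all 3 untreated ones, by 0.38 on the log2 scale, whereas all 3 OXPT libraries of KO esiHDAC4 were below all 3 untreated ones, by -0.27. This difference between #11 and esiHDAC4 was not tested, and neither change was called. How many of all genes showed such a pattern was not counted.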

How the results depend on the processing

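In KO esiCT, where 1 member was called after OXPT, the count was 3 with the replicate block (MDC1, WEE1, CHEK1), 0 with only the groups compared, 2 with DESeq2 (MDC1, WEE1), 3 with the length index as a covariate (MDC1, WEE1, CHEK1) and 3 when every library numbered 3 was dropped (CHEK1, MDM4, WEE1, but not MDC1). Without a count filter it was again 1, but WEE1 in place of MDC1. The covariate and the dropping of number 3 were chosen after seeing the data. In KO #11, where 1 was called, it was 2 with reverse-strand counts, the replicate block, DESeq2 or the covariate (MDC1, CHEK1), 2 with no count filter (CHEK1 and PRKDC, but not MDC1), 5 with only the groups compared (MDC1, CHEK1, WEE1, MDM4, PRKDC) and 4 without number 3 (MDC1, CHEK1, WEE1, MDM4). In WT cells, where 3 were called, it was 0 with only the groups compared, and 4 with no count filter or without number 3, PRKDC being added in both. In KO esiHDAC4, where 3 were called, it was 4 with no count filter (PRKDC added) and 2 with only the groups compared (WEE1 lost). For #11 in untreated cells, where 0 were called, it was 1 with the replicate block (CHEK2), 2 with the covariate (PRKDC, CHEK2) and 5 without number 3 (ATM, ATR, PRKDC, TP53BP1, CHEK2). For #11 under OXPT it was 1 with no count filter (PRKDC) and 3 without number 3 (CHEK1, PRKDC, TP53BP1). Calls over all genes moved as well. For #11 in untreated cells they went from 63 of 12356 to 397 with the block, 1137 with the covariate and 1816 of 12507 without number 3, and for #11 under OXPT from 15 to 367 of 42865 with no filter and 1438 of 12507 without number 3. Over the 4 OXPT responses they numbered 1175 to 1480 as reported, 2082 to 2210 with the covariate and 2178 to 2847 without number 3, and lay between 84 in WT cells and 2636 in KO #11 with only the groups compared. In both #11 comparisons the numbers did not pair the libraries (correlations from -0.25 to 0.13). The block changed no call but those given here and in the report. For these results the cause was not tested. Leaving out 1 library, the count ranged from 0 to 2 in KO esiCT, 1 to 3 in KO esiHDAC4, 0 to 2 in KO #11 and 1 to 3 in WT cells, and stayed 0 in the other 9 comparisons.

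After OXPT, ATM, ATR and TP53BP1 turned positive with the covariate in KO esiCT (0.50, 0.42, 0.075), KO esiHDAC4 (0.42, 0.30, 0.57), KO #11 (0.61, 0.59, 0.66) and WT cells (0.29, 0.26, 0.38), and PRKDC in KO esiCT (0.0053), KO #11 (0.081) and WT cells (0.27). Without number 3, ATM turned positive in KO esiHDAC4 (0.18) and KO #11 (0.28) and ATR in KO #11 (0.15). Leaving out 1 library, ATM ranged from -0.36 to 0.33 in KO esiCT, -0.68 to 0.29 in KO esiHDAC4, -0.53 to 0.20 in KO #11 and -0.81 to 0.19 in WT cells. ATR ranged from -0.55 to 0.29, -0.96 to 0.044, -0.78 to 0.081 and -1.24 to 0.29 in the same order. TP53BP1 ranged from -0.75 to 0.27 in KO esiCT, -0.75 to 0.092 in KO esiHDAC4 and -0.94 to 0.12 in WT cells, and PRKDC from -1.57 to 0.092 in WT cells. MDC1, CHEK1, WEE1, MDM4 and CHEK2 kept their direction after OXPT in every fit.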

Other observations

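The 12 WT libraries without a group, whose label entries give opposite OXPT states, covered much of the range of the grouped libraries. Over them, MDC1 ran from 27.8 to 70.2 CPM (median 31.3), CHEK1 from 5.62 to 52.8 (median 17.9), WEE1 from 9.43 to 49.0 (median 24.4) and CHEK2 from 17.7 to 36.9 (median 24.5). PRKDC ran from 11.9 to 400.1 CPM (median 38.0), TP53BP1 from 3.50 to 45.5 (median 6.97), MDM4 from 9.58 to 60.4 (median 28.6), ATM from 2.57 to 22.9 (median 5.07) and ATR from 1.78 to 19.0 CPM (median 3.55).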
